A study of Mus musculus with 34 samples.

Results

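Livers labelled Irs1 knockout were compared directly with livers labelled Smyd2 knockout, with no control liver in the test. The comparison took 11 of the 34 livers of the series, 5 Irs1 knockout (Irs1 KO) and 6 Smyd2 knockout (Smyd2 KO), and every gene at 1 FPKM or above in no fewer than 5 of the 11. FPKM is the number of fragments on a transcript, divided by its length and by the size of the library. This left 16910 of the 35976 symbols listed, of which 24208 were above 0 in at least 1 of the 11 livers.

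All mice were C57BL/6, and carried 2 homozygous alleles, a Cas9 gene under a tetracycline-responsive promoter (TetO-Cas9) and, at the Rosa locus, the transactivator rtTA that switches it on with a tetracycline drug (Rosa-rtTA). Each had received an adeno-associated virus (AAV) with a guide RNA against Irs1 or Smyd2 and had been kept on a Western diet, rich in fat and sugar, for 3 months. The 6 control livers of the series, 4 with a guide against GFP (sgGFP) and 2 with one against LacZ (sgLacZ), carried the same Cas9 and transactivator alleles and diet, and their ranges are given for reference only. The series title calls the livers MOSAICS based, and the transactivator at Rosa does not confine Cas9 to hepatocytes. The share of edited cells, the age at injection and the sex of the mice were not given in the sources used here. The labels number the livers, and each was taken as 1 animal. Had any come from the same animal, p-values would in part measure technical spread and would rest on fewer animals than livers.

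IRS1 is an adaptor that the activated insulin receptor phosphorylates. It recruits phosphoinositide 3-kinase, which activates AKT, and in liver this branch restrains glucose output and favours lipid synthesis. IRS2 is its close relative in hepatocytes. SMYD2 is a methyltransferase that transfers methyl groups to lysines of histones and of other proteins, p53 and HSP90 among them. The comparison therefore sets guides against an insulin signalling adaptor beside guides against a lysine methyltransferase, in livers under the same diet.

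The depth implied by the steps of the low FPKM values was 2430000 to 2740000 counted reads per library, and the median standard error of a log2 difference was 0.22. Genes above 0 numbered 17831 to 18826 in Irs1 KO and 19208 to 19927 in Smyd2 KO livers. The median level of the genes tested, as log2(FPKM + 1), was 4.60 to 4.69 and 4.72 to 4.96. Smyd2 KO liver 6 stood apart: its correlations with the other Smyd2 KO livers across genes were 0.9306 to 0.9515, against 0.9579 to 0.9718 among livers 1 to 5. Counts are therefore also given without it. The labels give no batch.

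The targeted genes were examined first. Irs1 (chr1:82233101-82291416, minus strand in GRCm38, protein-coding) stood at 35.8, 31, 28.9, 27.9 and 25.4 FPKM in the 5 Irs1 KO livers. In Smyd2 KO its lowest, median and highest values were 19.6, 27.9 and 31.5, and the groups overlapped (log2 difference 0.15, SE 0.15, limma adjusted p = 0.589). Smyd2 (chr1:189880492-189922363, minus strand) stood at 99.4, 89.5, 105, 103 and 96.8 FPKM in the Irs1 KO livers. Its lowest, median and highest values in Smyd2 KO were 61.7, 91.7 and 121, again overlapping (log2 difference 0.11, SE 0.16, limma adjusted p = 0.717). The 6 control livers, which entered no test, held 20.2 to 27.6 FPKM of Irs1 and 81.6 to 147 of Smyd2. Mean Irs1 was 29.8 in Irs1 KO, 26.8 in Smyd2 KO and 23.5 in controls, so it was not lower in its own knockout. Mean Smyd2 was 98.9 in Irs1 KO, 93.5 in Smyd2 KO and 115 in controls. Since a cut gene may go on being transcribed, neither mRNA checks the labels, and the positions of the guides were not given in the sources used here.

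A total of 1009 genes differed between the groups, which is 5.97% of those tested (limma on log2(FPKM + 1), two-sided, Benjamini-Hochberg adjusted p under 0.05). Of these 765 were lower in Irs1 KO (4.52%) and 244 higher (1.44%), and 338 of the lower and 46 of the higher differed at least 2-fold. Each list count below is to be read against these 4.52% and 1.44%. The median log2 difference of all genes tested was -0.11, and differences are read against that value. By level it ran from -0.208 below a mean of 5 FPKM to 0.0305 at 500 FPKM or more. FPKM is relative to the size of the library, so this median cannot show a general deficit in Irs1 KO. The split of calls depends on how the libraries are scaled: 24.2% of calls were higher as deposited, 65.1% after scaling to equal medians (779 higher, 417 lower) and 44.4% after quantile normalization (335 higher, 420 lower). No gene named below changed its sign under any of the 21 alternatives tried. The groups did not overlap in FPKM for 950 genes (5.62%), and 674 of the 1009 calls were among them.

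Higher and lower calls sat at different levels of expression. Among genes with a mean below 5 FPKM, 0.216% were higher and 2.03% lower in Irs1 KO, while at 500 FPKM or more 6.78% were higher and 5.2% lower. The mean of the 6 control livers, which entered no test, lay nearer to the Smyd2 KO mean than to the Irs1 KO mean for 942 of the 1009 called genes (93.4%), against 68.1% of all genes tested. For most called genes the Irs1 KO mean thus lay farther from the controls.

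**Figure D1:**
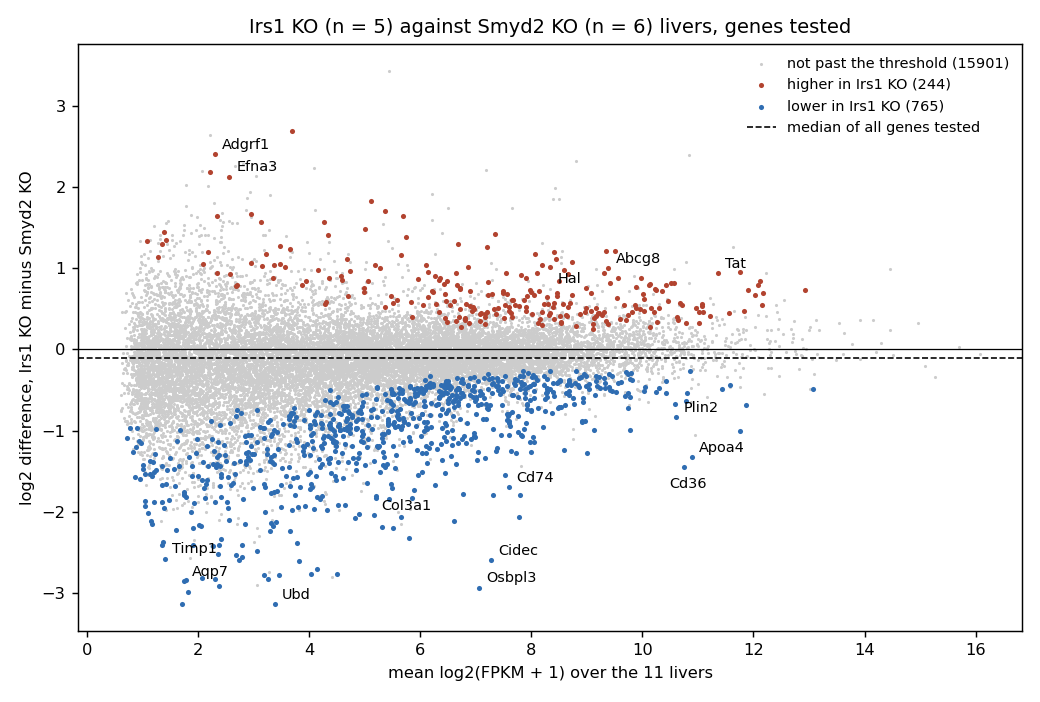
Log2 difference (Irs1 KO minus Smyd2 KO) against the mean log2(FPKM + 1) over the 11 livers, 1 point per gene tested; red points are the 244 genes higher and blue points the 765 lower in Irs1 KO, and the dashed line is the median of all genes at -0.11. The lower genes spread over all levels and reach beyond 2 log2 units, and the higher genes crowd towards the right.

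Several lipid storage genes were lower in Irs1 KO livers. Of 24 genes of triglyceride synthesis and lipid droplets tested, 10 were lower, 0 higher and 14 not called, with a median log2 difference of -0.55 against -0.11 for all genes. Cidec, which fuses lipid droplets into larger ones (chr6:113424634-113435760, minus strand), stood at 59.8, 56.8, 46.8, 112 and 33.4 FPKM in the 5 Irs1 KO livers and had a lowest, median and highest value of 185, 367 and 476 in the Smyd2 KO livers. Every Irs1 KO liver lay below every Smyd2 KO liver, with means of 61.7 ± 29.7 against 364 ± 103 FPKM (SD, n = 5 and n = 6), which is 5.9-fold lower (log2 difference -2.60, SE 0.29, limma adjusted p = 0.00175). The control livers held 338 to 745 FPKM.

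Transcripts for a droplet coat protein and a fatty acid transporter were lower as well. Plin2, the main droplet coat protein of hepatocytes (chr4:86648386-86670060, minus strand), stood at 1148, 963, 1155, 1355 and 1090 FPKM in Irs1 KO and at 1370, 2140 and 2606 (lowest, median, highest) in Smyd2 KO. The ranges were separated by a narrow gap (log2 difference -0.83, SE 0.15, limma adjusted p = 0.0111). Cd36, a fatty acid transporter (chr5:17781690-17888801, minus strand), stood at 630, 781, 968, 1406 and 1463 against 2044, 2743 and 3553 FPKM, 2.62-fold lower with no overlap (log2 difference -1.45, SE 0.21, limma adjusted p = 0.0062). Aqp7, a channel for glycerol (chr4:41033074-41048139, minus strand), was near or at 0 in every Irs1 KO liver, with 0, 0.16, 0.145, 0.15 and 0.292 FPKM, and reached 1.97, 6.04 and 19.3 in Smyd2 KO (limma adjusted p = 0.00806). Hsd17b13, a droplet-bound dehydrogenase, stood at 670.2 ± 127 against 989.7 ± 122 FPKM (log2 difference -0.57, SE 0.12, limma adjusted p = 0.0213), a call that ended without Irs1 KO 1 or Irs1 KO 2 (limma adjusted p up to 0.0568). Osbpl3, a lipid transfer protein of the oxysterol-binding family that is in none of the lists (chr6:50293330-50456201, minus strand), had the smallest adjusted p of the named genes. It stood at 40, 48.7, 20.1, 78.1 and 46.2 FPKM in Irs1 KO against 265, 310.3 and 502 in Smyd2 KO, 7.34-fold lower (log2 difference -2.94, SE 0.28, limma adjusted p = 0.00088).

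Leaving out 1 liver at a time gave 6 to 10 lower members of the lipid droplet list, with the 6 reached without Irs1 KO 2, and scaling to equal medians also gave 6. Of the markers for cells of fat tissue, Adipoq and Lep were listed at 0 in all 11 livers. Cfd, the fat cell protease adipsin, was not, with 0, 1.75, 4.74, 29.4 and 0 FPKM in Irs1 KO and 0, 47.1 and 89.9 in Smyd2 KO (log2 difference -2.75, SE 1.19, limma adjusted p = 0.188), and it passed without Smyd2 KO 6, which was listed at 0 (limma adjusted p = 0.0336). The summed level of the 10 mesothelial and adipose markers was 269.6 to 415 FPKM in Irs1 KO and 329.4 to 996.1 in Smyd2 KO livers, and their part in the result was not tested. Hepatocyte marker transcripts summed to 126300 to 157400 FPKM in Irs1 KO and 109500 to 140500 in Smyd2 KO livers. Those ranges overlap, and their part in the result was not tested.

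**Figure D2:**
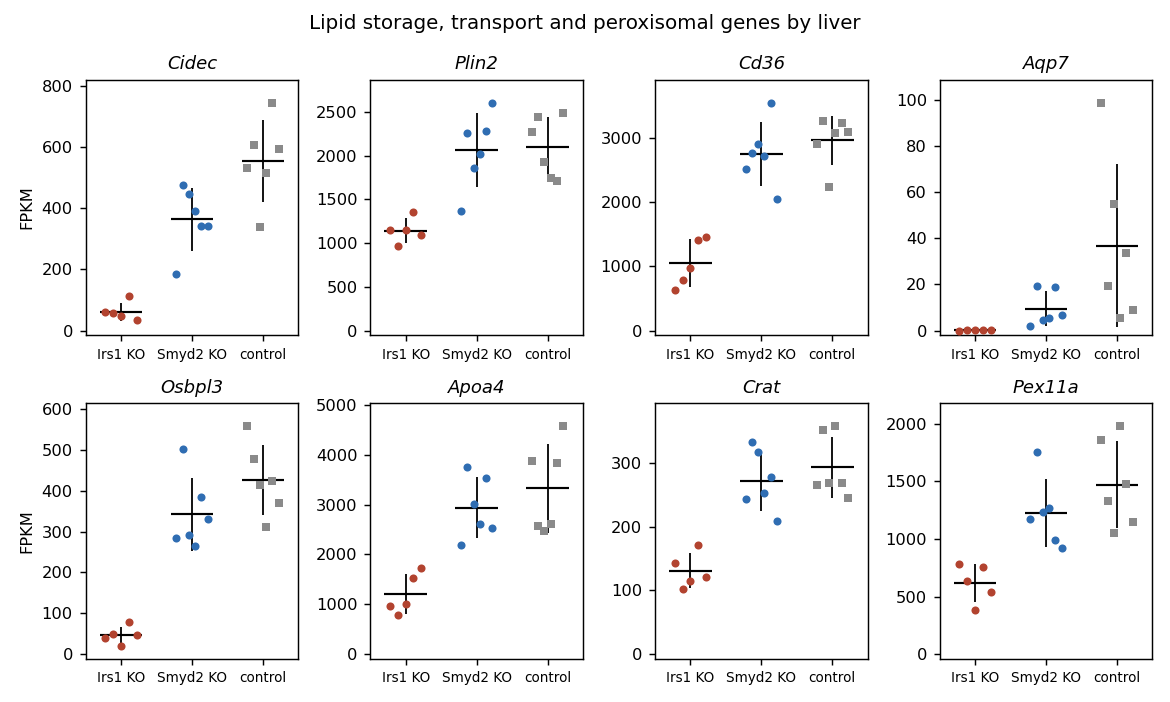
FPKM of 8 genes of lipid storage, transport and peroxisomes in each liver, 1 point per liver, with the group mean (horizontal line) and SD (vertical line); red circles are Irs1 KO (n = 5), blue circles Smyd2 KO (n = 6) and grey squares the 6 controls, shown for reference. The Irs1 KO points lie below every Smyd2 KO point in each panel, and the Smyd2 KO and control points overlap.

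Some genes of fatty acid oxidation were also lower. Of 27 tested, 9 were lower and 0 higher in Irs1 KO, with a median log2 difference of -0.44. Many are targets of PPARα, the receptor through which fatty acids raise their own breakdown. Crat, which moves acyl groups between carnitine and coenzyme A (chr2:30400471-30415813, minus strand), stood at 144, 102, 115, 172 and 122 FPKM in Irs1 KO and 209, 265 and 333 in Smyd2 KO, 2.08-fold lower without overlap (log2 difference -1.06, SE 0.15, limma adjusted p = 0.00577). Pex11a, a peroxisome division factor, stood at 779, 634, 384, 759 and 539 against 918, 1205 and 1759 FPKM (log2 difference -1.0, SE 0.20, limma adjusted p = 0.015). Vnn1, a pantetheinase, stood at 116, 124, 149, 204 and 216 against 197, 401 and 491 FPKM. These ranges overlapped because Smyd2 KO 6 was the lowest of its group, while the mean difference held (log2 difference -1.26, SE 0.24, limma adjusted p = 0.0135).

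Ehhadh, a peroxisomal β-oxidation enzyme, stood at 604 ± 81.8 against 870.3 ± 105 FPKM (log2 difference -0.53, SE 0.11, limma adjusted p = 0.0189), a call lost without Irs1 KO 1 (limma adjusted p = 0.0501). Aldh3a2, which oxidises fatty aldehydes and was listed among pericentral genes (chr11:61223417-61267464, minus strand), stood at 2548, 2426, 1818, 2818 and 2411 against 3451, 4759 and 6286 FPKM, 2.01-fold lower without overlap (log2 difference -1.0, SE 0.15, limma adjusted p = 0.0062). The count of lower oxidation genes rose to 15 without Smyd2 KO 6. It was 4 or 5 without Irs1 KO 1, 2 or 3 or Smyd2 KO 2, and 5 after scaling to equal medians. Fatty acid synthesis gave 1 lower gene and 0 higher of 20, where 4.52% of all genes tested were lower. That gene was the desaturase Fads2 (1002 ± 148 against 1439 ± 223 FPKM, log2 difference -0.52, SE 0.13, limma adjusted p = 0.0352), whose call ended without any 1 of 8 livers (Irs1 KO 1 to 4, Smyd2 KO 2 to 5, limma adjusted p up to 0.0811). Mlxipl, the sugar-sensing transcription factor ChREBP, did not pass (2999 ± 204 against 2297 ± 350.4 FPKM, limma adjusted p = 0.0541). It passed after scaling to equal medians, with a filter at an FPKM of 5, and without Smyd2 KO 1 or Smyd2 KO 6 (limma adjusted p down to 0.0326).

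Lipoprotein genes split, with 5 of 23 higher and 3 lower in Irs1 KO. Apoa4, an apolipoprotein whose liver mRNA is known to follow liver fat (chr9:46240696-46243459, plus strand), stood at 972, 782, 1009, 1519 and 1734 FPKM in Irs1 KO and 2197, 2809 and 3743 in Smyd2 KO. It was 2.44-fold lower without overlap (log2 difference -1.33, SE 0.21, limma adjusted p = 0.00715). Pltp, the phospholipid transfer protein, stood at 28.3, 14.8, 20.4, 25.8 and 30.9 against 35, 53.8 and 76.4 FPKM (log2 difference -1.19, SE 0.23, limma adjusted p = 0.0147). In the opposite direction, Abcg8, part of the transporter that moves cholesterol into bile (chr17:84676302-84700333, plus strand), stood at 1341, 1158, 639.8, 984 and 910.1 against 348, 505 and 619 FPKM, 2.03-fold higher (log2 difference 1.0, SE 0.19, limma adjusted p = 0.0135). Scarb1, the receptor for high-density lipoprotein, was higher at 615 ± 52.8 against 437 ± 69.4 FPKM (log2 difference 0.50, SE 0.11, limma adjusted p = 0.0239), a call that ended without Irs1 KO 1 or Irs1 KO 4 (limma adjusted p up to 0.0634). The count of higher members was 1 to 3 without any 1 of 8 livers (each Irs1 KO liver, Smyd2 KO 2, 3 and 5). Of 24 cholesterol synthesis and uptake genes 1 was lower and 0 higher, where 4.52% of all genes tested were lower. That list gave 2 lower without Smyd2 KO 5 and 1 higher without Irs1 KO 5 or Smyd2 KO 5 or after either rescaling.

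In 5 genes of MHC class II antigen presentation every Irs1 KO liver lay below every Smyd2 KO liver. Class II genes show peptides to helper T cells and are read mainly in dendritic cells, macrophages and B cells under the control of the coactivator CIITA. Their promoters are known to share an inverted CCAAT element, the Y box. Promoters of the class II genes H2-Aa and H2-Eb1 are shown because the genes moved together, and that of Ubd because it had the lowest difference of the named genes. H2-Aa and H2-Eb1 were chosen after their values were seen. Each runs from 250 bases before to 50 after the start (RefSeq, GRCm38.p6), 5′ to 3′ on the gene's strand. Capitals mark CCAAT or AGGTCA on either strand.
H2-Aa (chr17:34287774-34288073, minus strand): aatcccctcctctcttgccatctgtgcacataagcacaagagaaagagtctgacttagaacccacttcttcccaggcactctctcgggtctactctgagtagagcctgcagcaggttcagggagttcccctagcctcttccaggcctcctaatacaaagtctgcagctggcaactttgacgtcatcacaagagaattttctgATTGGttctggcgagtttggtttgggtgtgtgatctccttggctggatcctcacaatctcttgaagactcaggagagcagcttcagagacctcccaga
H2-Eb1 (chr17:34305617-34305916, plus strand): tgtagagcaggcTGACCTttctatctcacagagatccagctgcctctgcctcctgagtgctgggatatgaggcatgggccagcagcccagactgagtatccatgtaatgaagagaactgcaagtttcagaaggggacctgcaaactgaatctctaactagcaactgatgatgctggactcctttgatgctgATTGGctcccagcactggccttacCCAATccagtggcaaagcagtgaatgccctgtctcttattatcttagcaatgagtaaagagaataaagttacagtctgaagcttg
Ubd (chr17:37193642-37193941, plus strand): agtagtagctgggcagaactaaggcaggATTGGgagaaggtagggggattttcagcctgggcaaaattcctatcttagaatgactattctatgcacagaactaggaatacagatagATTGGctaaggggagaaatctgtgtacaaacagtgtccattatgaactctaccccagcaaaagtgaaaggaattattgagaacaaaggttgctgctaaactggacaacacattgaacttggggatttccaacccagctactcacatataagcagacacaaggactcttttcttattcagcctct

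The windows were searched on both strands for CCAAT, the letters TATAAA of the TATA box, AGGTCA as the core site of nuclear receptors, TTCNNNGAA as a gamma-activated site, TGANTCA as the site of AP-1, and an interferon response motif. CCAAT occurred 1 time in the H2-Aa window and 2 times each in those of H2-Eb1 and Ubd, and AGGTCA occurred 1 time in that of H2-Eb1. No other motif was in these windows. Of 27025 promoters in the table, 37.9% held CCAAT and 16% held AGGTCA, so a match is common and describes the letters only. The TATA letters were in 14.2%, the gamma-activated site in 8.47%, the AP-1 site in 7.93% and the interferon response motif in 3.49%.

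All 5 class II genes called were lower in every alternative tried, out of 11 dendritic cell and class II genes tested, none of which was higher. Ciita (chr16:10480059-10528418, plus strand) stood at 18.5, 24.9, 19.1, 19.8 and 20.9 FPKM in Irs1 KO and at 56.2, 74.9 and 119.8 in Smyd2 KO, 3.85-fold lower without overlap (log2 difference -1.84, SE 0.21, limma adjusted p = 0.00175). H2-Aa, a class II α chain whose promoter is shown above, stood at 20.3, 20.4, 10.3, 18.4 and 20 against 41.7, 67.6 and 99.1 FPKM (log2 difference -1.83, SE 0.28, limma adjusted p = 0.00691). H2-Eb1, a β chain, stood at 26.2, 25.7, 18, 21.1 and 23 against 49.8, 72.3 and 137 FPKM (log2 difference -1.71, SE 0.24, limma adjusted p = 0.00577). Cd74, the invariant chain that guards the peptide groove, stood at 107, 75.6, 103, 116 and 111 against 222, 322 and 489 FPKM (log2 difference -1.70, SE 0.21, limma adjusted p = 0.00309). In these 4 genes every Irs1 KO liver lay below every Smyd2 KO liver. Irs1 KO 3 was far below the rest of its group for H2-Aa, as was Irs1 KO 2 for Cd74. H2-Ab1 was the fifth, with a log2 difference of -1.67 (limma adjusted p = 0.00848).

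Some macrophage markers were lower beside them. Of 22 Kupffer cell and macrophage markers 7 were lower, 0 higher and 15 not called in Irs1 KO, with a median log2 difference of -0.94. Csf1r, the receptor for the macrophage growth factor CSF1 (chr18:61100598-61132149, plus strand), stood at 131, 113, 133, 179.6 and 213 FPKM in Irs1 KO and 229, 336 and 370.1 in Smyd2 KO, 2.06-fold lower (log2 difference -1.05, SE 0.18, limma adjusted p = 0.01). Ccr2, the receptor that brings blood monocytes into tissue (chr9:124101950-124113557, plus strand), stood at 13.7, 11.2, 4.88, 7.92 and 6.83 against 17.6, 37.5 and 69.5 FPKM (log2 difference -1.98, SE 0.35, limma adjusted p = 0.011). Neither gene overlapped between the groups, and both calls held in every alternative. Gpnmb, a glycoprotein of lipid-laden macrophages (chr6:49036546-49070929, plus strand), stood at 0.902, 0.213, 1.35, 1.4 and 0.0972 against 2.16, 9.27 and 50.4 FPKM (limma adjusted p = 0.023), a call that ended without Irs1 KO 1, Irs1 KO 2 or Smyd2 KO 2 (limma adjusted p up to 0.0529). The lysozyme gene Lyz2 was lower (139 ± 64.2 against 333 ± 129 FPKM, log2 difference -1.27, SE 0.29, limma adjusted p = 0.0266), a call lost without any 1 of Irs1 KO 1 to 4, Smyd2 KO 2 or Smyd2 KO 4 (limma adjusted p up to 0.0681).

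The summed level of the 22 macrophage markers was 1132 to 1975 FPKM in Irs1 KO and 1564 to 4259 in Smyd2 KO livers, and that of the class II list was 244.9 to 314.7 and 565.6 to 1199. The macrophage count was 2 to 4 without any 1 of Irs1 KO 1 to 4, Smyd2 KO 2 or Smyd2 KO 5, and 8 without Smyd2 KO 6. In bulk liver, fewer cells of a type and less RNA per cell cannot be told apart.

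Among markers of other immune cells, 3 of 13 neutrophil genes were high enough to be tested, of which 2 were lower and 0 higher (median log2 difference -1.95). The summed level of the 13 was 30.0 to 63.1 FPKM in Irs1 KO and 41.6 to 196 in Smyd2 KO livers. S100a8, a subunit of calprotectin, was listed at 0 in 4 Irs1 KO livers and at 2.06 in the other, against 0.96, 4.51 and 7.63 FPKM (limma adjusted p = 0.0217). Its call ended without Irs1 KO 1, Irs1 KO 4 or Smyd2 KO 2 (limma adjusted p up to 0.0549). At the implied depth its values stand for few reads in either group. Csf3r, the receptor for granulocyte colony-stimulating factor, stood at 33.2 ± 7.28 against 77.5 ± 26.1 FPKM (log2 difference -1.14, SE 0.26, limma adjusted p = 0.027), a call lost without any 1 of Irs1 KO 1 to 3, Smyd2 KO 2, 4 or 5 (limma adjusted p up to 0.0636). The count was 0 or 1 without any 1 of Irs1 KO 1 to 4, Smyd2 KO 2, 4 or 5. The chemokine Ccl5, which attracts T cells, stood at 2.15, 10.6, 0, 7.82 and 0 against 14.8, 21.9 and 26 FPKM (limma adjusted p = 0.0212), and lost its call without Irs1 KO 1 (limma adjusted p = 0.0501). Of 13 T and NK cell markers and 7 B and plasma cell markers none passed, and 1 B and plasma cell marker was lower without Smyd2 KO 1. Cd3g, a chain of the T cell receptor complex, averaged 2.68 ± 1.35 against 5.92 ± 2.88 FPKM (limma adjusted p = 0.171), while Cd22, a B cell lectin, averaged 15.4 ± 9.26 against 35.3 ± 13.9 FPKM (limma adjusted p = 0.12).

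Interferon-stimulated genes were lower in 6 of 26 cases and higher in 0, with a median log2 difference of -0.53. Ubd, a ubiquitin-like protein induced by interferon gamma and TNF (chr17:37193892-37196095, plus strand), is in none of the lists and had the lowest log2 difference of the named genes. It stood at 4.07, 1.73, 1.56, 0.404 and 5.52 FPKM in Irs1 KO and 8.03, 31.6 and 56.7 in Smyd2 KO, 12.0-fold lower without overlap (log2 difference -3.14, SE 0.49, limma adjusted p = 0.00758), and the controls held 16.4 to 60.9. Gbp2, a GTPase of cell defence, stood at 14.4, 17.3, 8.49, 13.4 and 20.4 against 22.1, 42 and 65.9 FPKM (log2 difference -1.39, SE 0.27, limma adjusted p = 0.0147). The ranges were separate. Ifit3, an antiviral protein, stood at 18.8, 17.9, 17.1, 12.3 and 32.2 against 30.5, 38.5 and 43.1 FPKM, where Irs1 KO 5 exceeded the lowest Smyd2 KO liver (log2 difference -0.98, SE 0.20, limma adjusted p = 0.0186). The count fell to 3 without Irs1 KO 1 or Smyd2 KO 2.

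**Figure D3:**
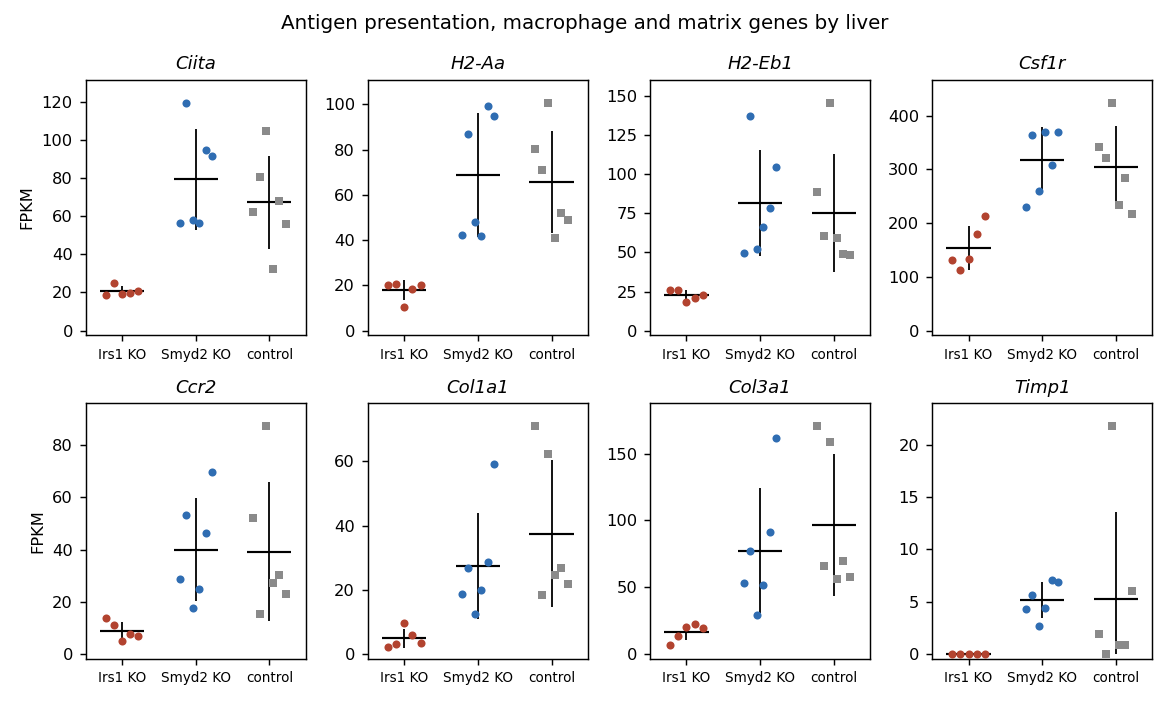
FPKM of 8 genes of antigen presentation, macrophages and matrix in each liver, 1 point per liver, with the group mean (horizontal line) and SD (vertical line, not drawn below 0); red circles are Irs1 KO (n = 5), blue circles Smyd2 KO (n = 6) and grey squares the 6 controls, shown for reference. The Irs1 KO points lie below every Smyd2 KO point, and Timp1 is at 0 in all 5.

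Matrix genes showed wide differences between the groups. Of 28 collagen and matrix genes 9 were lower and 1 higher in Irs1 KO, with a median log2 difference of -0.89, and 4 of 18 stellate cell markers were lower and 0 higher. Of those 4, Col1a1, Col3a1 and Lum are also counted among the matrix genes. Col1a1, a chain of fibrillar collagen I (chr11:94936224-94953042, plus strand), stood at 2.18, 3.21, 9.68, 5.93 and 3.61 FPKM in Irs1 KO and 12.6, 23.3 and 59.1 in Smyd2 KO, 5.61-fold lower (log2 difference -2.24, SE 0.39, limma adjusted p = 0.01). Col3a1, the chain of collagen III (chr1:45311538-45349706, plus strand), stood at 6.98, 14, 20.5, 22.3 and 19.6 against 29.1, 65.2 and 162 FPKM, 4.64-fold lower (log2 difference -2.04, SE 0.39, limma adjusted p = 0.0146). Neither overlapped, and Smyd2 KO 6 was the highest of its group in both. Timp1, an inhibitor of matrix proteases (chrX:20870166-20874735, plus strand), was listed at 0 in all 5 Irs1 KO livers and at 4.28, 5.65, 2.72, 4.4, 7.09 and 6.9 FPKM in Smyd2 KO 1 to 6 (limma adjusted p = 0.000914). The controls ranged from 0 to 21.8.

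Lum, a proteoglycan that binds collagen, stood at 10.2 ± 3.24 against 29.1 ± 12.7 FPKM (log2 difference -1.35, SE 0.31, limma adjusted p = 0.0257), a call that ended without any 1 of Irs1 KO 1, 2 or 4, Smyd2 KO 2 or Smyd2 KO 5 (limma adjusted p up to 0.0658). Pdgfrb, the growth factor receptor of stellate cells, stood at 19 ± 2.91 against 35.4 ± 9.99 FPKM (log2 difference -0.84, SE 0.20, limma adjusted p = 0.03), and lost its call without any 1 of Irs1 KO 1, 2 or 4, Smyd2 KO 2, 4 or 5 (limma adjusted p up to 0.0698). Col18a1, the one member that was higher, encodes a basement membrane collagen that hepatocytes also make (chr10:77052178-77166548, minus strand). It stood at 4492, 4051, 4248, 4372 and 4530 FPKM against 2977, 3051 and 3553, 1.39-fold higher without overlap (log2 difference 0.47, SE 0.08, limma adjusted p = 0.00795). The count of lower matrix genes was 4 or 5 without any 1 of Irs1 KO 1, 2 or 4, Smyd2 KO 2 or Smyd2 KO 5, and 9 without Smyd2 KO 6. Stellate markers summed to 1473 to 1749 FPKM in Irs1 KO and 1529 to 2407 in Smyd2 KO livers, ranges that overlap, and their part in the matrix result was not tested. The stellate count was 2 without any 1 of Irs1 KO 1, 2 or 4, Smyd2 KO 2 or Smyd2 KO 5, and 7 without Smyd2 KO 3.

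Among endothelial markers 1 of 19 was lower, where 4.52% of all genes tested were lower. This was Lyve1, a hyaluronan receptor of sinusoids (19.6 ± 6.14 against 38.5 ± 7.52 FPKM, log2 difference -0.96, SE 0.20, limma adjusted p = 0.0197), whose call ended without Irs1 KO 1 (limma adjusted p = 0.0501). No cholangiocyte marker of 11 passed, and 1 was lower without Smyd2 KO 3. Spp1, the matrix protein osteopontin, ranged from 171 to 455 FPKM in Irs1 KO and from 174 to 1892 in Smyd2 KO (limma adjusted p = 0.242), with Smyd2 KO 5 and 6 far above the rest.

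Several genes typical of hepatocytes were higher in Irs1 KO. Of 24 periportal genes, those of hepatocytes at the entry of blood to the lobule, 6 were higher and 1 lower, with a median log2 difference of 0.34. Tat, which breaks down tyrosine (chr8:109990437-109999803, plus strand), stood at 4315, 3670, 3794, 3801 and 3259 FPKM in Irs1 KO and 1550, 1791 and 2711 in Smyd2 KO, 1.88-fold higher (log2 difference 0.94, SE 0.15, limma adjusted p = 0.00725). Hal, which breaks down histidine (chr10:93488768-93519304, plus strand), stood at 464, 508, 446, 499 and 456 against 154, 264 and 313 FPKM, 1.96-fold higher (log2 difference 1.02, SE 0.18, limma adjusted p = 0.0111). Pigr, the receptor that carries IgA into bile (chr1:130826684-130852249, plus strand), stood at 1308, 1175, 1362, 1356 and 1531 against 636, 832 and 1137 FPKM, 1.58-fold higher (log2 difference 0.69, SE 0.14, limma adjusted p = 0.0164). In all 3 the groups were separate, and the calls held in every alternative. The 1 lower member was Hsd17b13, already described with the lipid droplet genes. The count of higher members was 3 without any 1 of 7 livers (Irs1 KO 1, 2, 4 or 5, Smyd2 KO 2, 4 or 5) and 7 without Smyd2 KO 6.

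Of 18 hepatocyte markers 4 were higher, Tat among them, and 0 lower. Their median log2 difference was 0.19, with 14 positive and 4 negative members that ran from -1.05 to 0.94. A lower member was called without Irs1 KO 5 or with a filter at an FPKM of 5. The count of higher members was 2 without any 1 of 7 livers (Irs1 KO 1, 3, 4 or 5, Smyd2 KO 2, 4 or 5). Asgr2, a subunit of the receptor that clears desialylated glycoproteins, stood at 1506, 1530, 1226, 1378 and 1438 against 907, 1044 and 1158 FPKM (log2 difference 0.46, SE 0.09, limma adjusted p = 0.0147). Hnf4a, a master transcription factor of hepatocytes, stood at 2006 ± 79.7 against 1604 ± 138 FPKM (log2 difference 0.33, SE 0.08, limma adjusted p = 0.0287), a call that ended without any 1 of those 7 livers (limma adjusted p up to 0.0651). Cps1, the first enzyme of the urea cycle, stood at 5436 ± 652 against 3504 ± 909.7 FPKM (log2 difference 0.67, SE 0.17, limma adjusted p = 0.0425), and lost its call without any 1 of 8 livers (each Irs1 KO liver, Smyd2 KO 2, 4 and 5, limma adjusted p up to 0.0952).

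Some genes of the endoplasmic reticulum stress response were higher. Of 23 genes of the unfolded protein and integrated stress response, 5 were higher and 1 lower in Irs1 KO, with a median log2 difference of 0.29. Hyou1, a large chaperone of this compartment (chr9:44379490-44392369, plus strand), stood at 759.6, 656, 777, 691 and 618 FPKM in Irs1 KO and 322, 455 and 528 in Smyd2 KO, 1.6-fold higher without overlap (log2 difference 0.70, SE 0.13, limma adjusted p = 0.0129). Herpud1, which takes part in the removal of misfolded proteins, stood at 696 ± 56.2 against 513 ± 62.7 FPKM (log2 difference 0.44, SE 0.09, limma adjusted p = 0.0203), a call that ended without Irs1 KO 1 or Irs1 KO 4 (limma adjusted p up to 0.053). The lower member was Fgf21, a fasting hormone of the liver (7.28, 3.22, 14.6, 18.1 and 3.92 against 13.8, 26.4 and 52.9 FPKM, log2 difference -1.66, SE 0.42, limma adjusted p = 0.038). Its call ended without any 1 of Irs1 KO 1, 2 or 5 or Smyd2 KO 2 to 5 (limma adjusted p up to 0.0812). The count of higher members was 1 to 3 without any 1 of 9 livers (Irs1 KO 1 to 4, Smyd2 KO 1 to 5), 8 without Smyd2 KO 6 and 9 after scaling to equal medians. Of 20 heat shock proteins and co-chaperones none passed, and 1 was higher after scaling to equal medians.

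**Figure D4:**
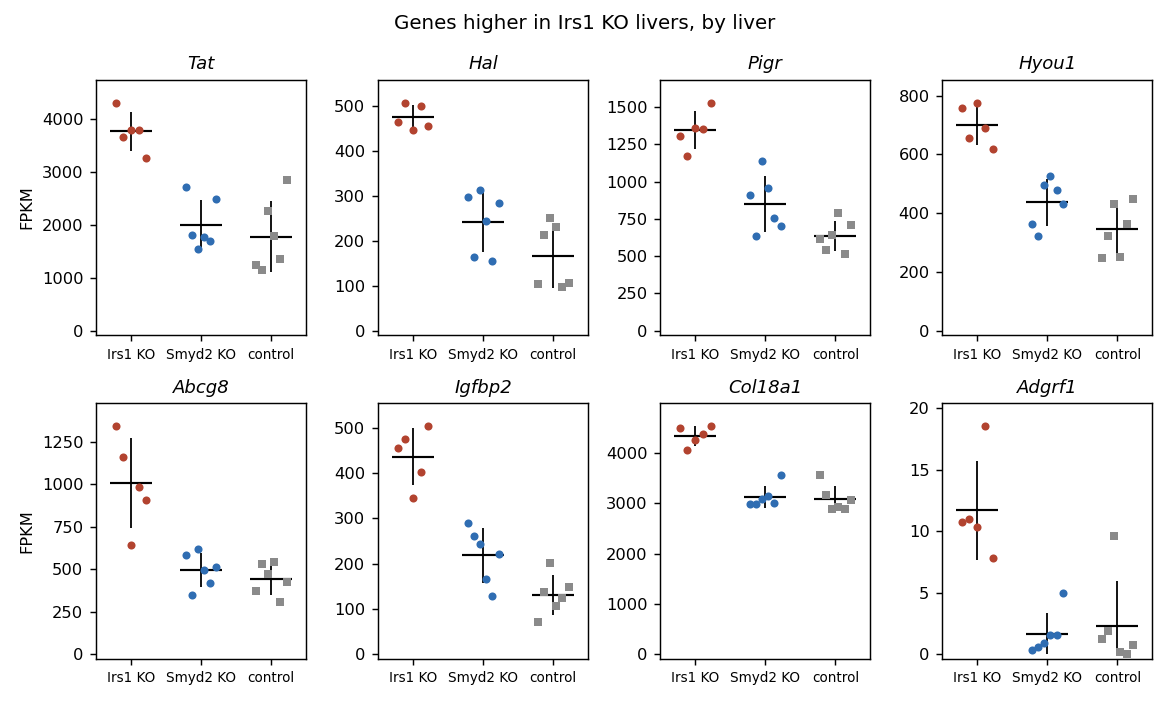
FPKM of 8 genes higher in Irs1 KO livers, 1 point per liver, with the group mean (horizontal line) and SD (vertical line, not drawn below 0); red circles are Irs1 KO (n = 5), blue circles Smyd2 KO (n = 6) and grey squares the 6 controls, shown for reference. All 5 Irs1 KO points lie above every Smyd2 KO point in each panel, and the margin is narrow for Pigr and Abcg8.

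In the insulin pathway itself none of 22 genes passed in either direction (median log2 difference -0.11). That count was 4 higher after scaling to equal medians, 2 higher and 1 lower without Smyd2 KO 6, and 1 higher without Irs1 KO 3. Of all genes tested 5.97% were called, so 0 of 22 is near that share. The nearest of the pathway was Irs2, the sister adaptor of IRS1 (chr8:10984681-11008458, minus strand). It stood at 19.3, 16, 10, 12.5 and 13.3 FPKM in Irs1 KO and 5.81, 8.11 and 10.2 in Smyd2 KO, so that 4 of 5 Irs1 KO livers lay above every Smyd2 KO liver (log2 difference 0.75, SE 0.21, limma adjusted p = 0.0512). Scaling to equal medians, quantile normalization and leaving out Irs1 KO 3 or Smyd2 KO 6 were among 8 alternatives that brought it past the threshold. Inppl1, the lipid phosphatase SHIP2, stood at 167 ± 23.2 against 212 ± 16.8 FPKM (log2 difference -0.35, SE 0.10, limma adjusted p = 0.0632), and passed with array weights (limma adjusted p = 0.0474).

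Of 22 genes of gluconeogenesis and glycolysis 3 were higher and 2 lower. Ppargc1a, a coactivator of fasting genes (chr5:51454250-51567726, minus strand), stood at 421, 275, 493, 335 and 474 FPKM against 130.2, 228 and 281, 1.9-fold higher with a slight overlap (log2 difference 0.94, SE 0.22, limma adjusted p = 0.0266). That call ended without Irs1 KO 1, 3 or 5 (limma adjusted p up to 0.0652). Gckr, the inhibitor of glucokinase, stood at 469 ± 58.7 against 349 ± 24.5 FPKM (log2 difference 0.42, SE 0.09, limma adjusted p = 0.0224), and lost its call without Irs1 KO 1, Irs1 KO 4 or Smyd2 KO 2 (limma adjusted p up to 0.0538). Pdk4, the kinase that closes the entry of pyruvate into the citric acid cycle (chr6:5483351-5496309, minus strand), stood at 8.82, 3.87, 4.98, 7.23 and 7.16 against 14.4, 16.5 and 37.1 FPKM, 3.09-fold lower without overlap (log2 difference -1.45, SE 0.27, limma adjusted p = 0.0135). The count of higher members fell to 0 to 1 without Irs1 KO 1, 4 or 5, and that of lower members moved to between 1 and 5 without any 1 liver other than Irs1 KO 3.

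The growth hormone and IGF axis gave 2 higher and 2 lower genes of 16. Igfbp2, a binding protein for insulin-like growth factors (chr1:72824503-72852474, plus strand), stood at 456, 474, 344, 403 and 503 FPKM in Irs1 KO and 128, 232 and 291 in Smyd2 KO, 2.0-fold higher without overlap (log2 difference 1.04, SE 0.19, limma adjusted p = 0.0134). Stat5a, a signal transducer of growth hormone, stood at 53.3 ± 9.18 against 77.6 ± 11.2 FPKM (log2 difference -0.54, SE 0.14, limma adjusted p = 0.0391), a call lost without any 1 of Irs1 KO 1, 2 or 4, Smyd2 KO 2, 4 or 5 (limma adjusted p up to 0.0853). The count of higher members was 1 without any 1 of Irs1 KO 1, 3, 4 or 5 or Smyd2 KO 2, 4 or 5. That of lower members was 0 or 1 without any 1 of Irs1 KO 1 to 4 or Smyd2 KO 2 to 6.

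Sex-biased liver genes varied widely within both groups. Male-biased genes had a median log2 difference of 0.75, but 1 of 27 was higher and 0 lower. Hsd3b5, a steroid dehydrogenase of male liver (chr3:98618634-98630252, minus strand), stood at 181, 208, 229, 141 and 80.2 FPKM in Irs1 KO and at 0, 24.2 and 100 in Smyd2 KO, with the ranges overlapping (log2 difference 3.43, SE 0.96, limma adjusted p = 0.054). Susd4, a complement regulator, was the one that passed (69.8, 118, 96.1, 40.7 and 85.1 against 5.32, 25.5 and 54.1 FPKM, log2 difference 1.70, SE 0.46, limma adjusted p = 0.0486). Its call ended without any 1 of 9 livers (each Irs1 KO liver, Smyd2 KO 2 to 5, limma adjusted p up to 0.104). The count was 0 or 2 without any 1 of the 11 livers. In the plot of list levels, Irs1 KO 5 lies lowest of its group (-0.435) and Smyd2 KO 1 highest of its group (1.05) for male-biased genes. Smyd2 KO 5 and 6 lie lowest of all, at -1.43 and -2.04, against -0.17 to 1.05 in Smyd2 KO 1 to 4. Of 18 female-biased genes 2 were lower. Fmo2, a flavin monooxygenase, stood at 38.3 ± 14.1 against 69 ± 14 FPKM (log2 difference -0.88, SE 0.22, limma adjusted p = 0.0386), a call that ended without any 1 of Irs1 KO 1 to 4 or Smyd2 KO 1 to 5 (limma adjusted p up to 0.0901). Rtn4, a protein that shapes the endoplasmic reticulum (chr11:29692947-29744331, plus strand), stood at 198, 216, 239, 283 and 308 against 345, 407 and 539 FPKM and held in every alternative (log2 difference -0.79, SE 0.14, limma adjusted p = 0.0109). The female-biased count was 1 without any 1 of 9 livers (Irs1 KO 1 to 4, Smyd2 KO 1 to 5) and 5 without Smyd2 KO 6.

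**Figure D5:**
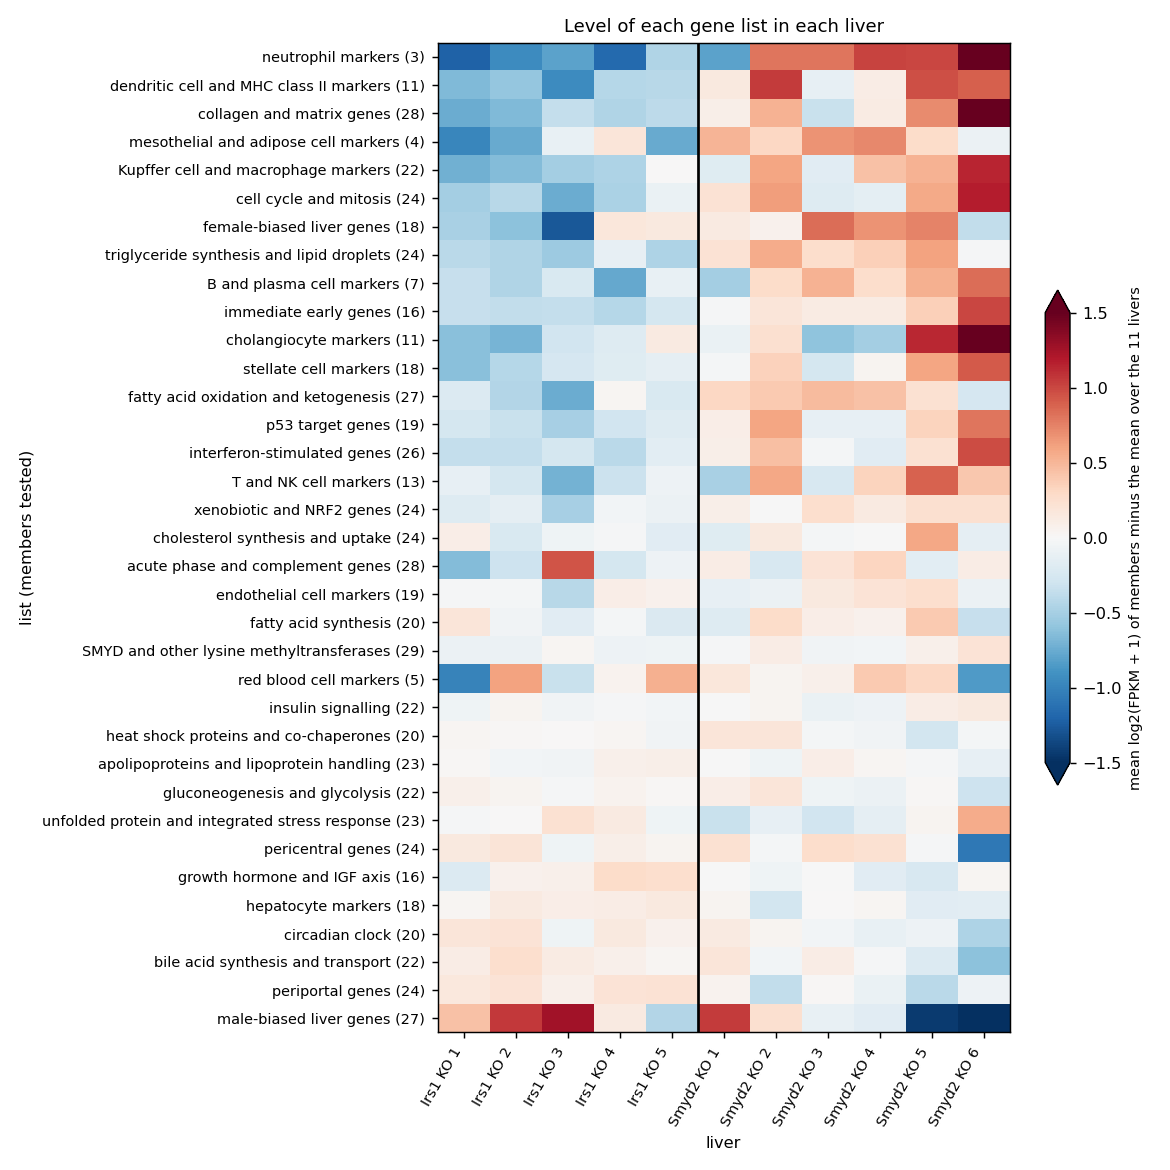
Level of each gene list (rows, with the number of members tested) in each of the 11 livers (columns), as the mean log2(FPKM + 1) of its members minus the mean over the 11 livers; red is higher and blue lower, and the black line separates the groups. Matrix genes run from -0.75 to -0.35 in Irs1 KO and from -0.33 to 1.5 in Smyd2 KO, and Smyd2 KO 6 holds the extreme in several rows.

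Genes of cell division and of stress were lower in part. Of 24 cell cycle genes 5 were lower and 0 higher in Irs1 KO, with a median log2 difference of -0.69. Mcm5, part of the helicase that opens DNA for replication (chr8:75109569-75128439, plus strand), stood at 15.2, 10.4, 2.43, 7.58 and 8.23 FPKM in Irs1 KO and 14.1, 26.5 and 49.3 in Smyd2 KO, 3.35-fold lower with a slight overlap (log2 difference -1.70, SE 0.39, limma adjusted p = 0.0268). The call ended without Irs1 KO 4 or Smyd2 KO 2 (limma adjusted p up to 0.0585). Top2a, a DNA topoisomerase of dividing cells, stood at 13.3 ± 6.53 against 45.1 ± 27.7 FPKM (log2 difference -1.59, SE 0.37, limma adjusted p = 0.0286), a call that ended without any 1 of Irs1 KO 1 to 4, Smyd2 KO 2 or Smyd2 KO 5 (limma adjusted p up to 0.0687). The count was 0 to 2 without any 1 of 7 livers (each Irs1 KO liver, Smyd2 KO 2 and 5).

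Of 19 p53 target genes 4 were lower and 0 higher, with a median log2 difference of -0.52. Plk2, a kinase (chr13:110395046-110400844, plus strand), stood at 14.3, 14.3, 14.8, 9.05 and 16.1 against 22, 25.1 and 33.1 FPKM, 1.96-fold lower without overlap, and held in every alternative (log2 difference -0.93, SE 0.18, limma adjusted p = 0.0135). Gdf15, a secreted stress factor, stood at 15.7, 7.9, 6.33, 12.2 and 4.89 against 17, 25.8 and 53.5 FPKM (log2 difference -1.56, SE 0.35, limma adjusted p = 0.0256), and lost its call without any 1 of Irs1 KO 2, 3 or 5 or Smyd2 KO 2 (limma adjusted p up to 0.0546). The count was 2 without Irs1 KO 2. Of 16 immediate early genes, which respond within minutes to many stimuli and to handling of tissue, 3 were lower and 0 higher. Jun, a subunit of AP-1 (chr4:95049034-95052222, minus strand), stood at 20.3, 25.5, 26.5, 26.6 and 20.5 against 45.3, 57.2 and 101 FPKM, 2.65-fold lower without overlap (log2 difference -1.33, SE 0.19, limma adjusted p = 0.0062). Without Irs1 KO 1 that count was 1.

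Remaining lists gave few calls. Bile acid synthesis and transport (22 genes), the circadian clock (20), lysine methyltransferases with the SMYD family (29), red blood cell markers (5) and mesothelial and adipose cell markers (4) gave 0 in either direction by limma. Of all genes tested 5.97% were called, so 0 in lists of this size is near that share. The red blood cell count was 0 in every alternative, and the others were not. Clock genes gave 1 or 2 higher without any 1 of Irs1 KO 3, Smyd2 KO 3, 5 or 6, and 2 after scaling to equal medians. That scaling also gave 3 higher bile acid genes and 2 higher methyltransferases. A single bile acid gene was higher without Smyd2 KO 3. Methyltransferases gave 1 higher without Smyd2 KO 6 and 1 lower without Smyd2 KO 1 or Smyd2 KO 4, and the adipose marker Cfd was lower without Smyd2 KO 6. Nr1d1, the clock repressor REV-ERBα, came nearest among clock genes at 79.4 ± 15.9 against 42.4 ± 19.3 FPKM (limma adjusted p = 0.0525), and Ezh2, a histone methyltransferase, among methyltransferases at 81.2 ± 22.1 against 134 ± 31.6 FPKM (limma adjusted p = 0.0535). Pericentral genes gave 2 lower of 24, xenobiotic and NRF2 genes 2 lower of 24, and acute phase and complement genes 1 higher and 1 lower of 28. Of all genes tested 4.52% were lower and 1.44% higher, so counts this small are near those shares. Hmox1, the heme-degrading enzyme, stood at 23.3 ± 3.81 against 49.2 ± 18.4 FPKM (log2 difference -0.99, SE 0.22, limma adjusted p = 0.0224), a call that ended without Irs1 KO 1 or Irs1 KO 2 (limma adjusted p up to 0.0559). Each of these 4 counts was over 1.5 times larger or smaller without at least 6 of the 11 livers.

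Some of the widest differences lay outside the lists. Adgrf1, an adhesion receptor coupled to G proteins (chr17:43270329-43324737, plus strand), stood at 10.8, 11, 10.4, 18.5 and 7.85 FPKM in Irs1 KO and 0.368, 1.2 and 4.96 in Smyd2 KO, 7.13-fold higher (log2 difference 2.41, SE 0.37, limma adjusted p = 0.00691). Efna3, an ephrin ligand (chr3:89313899-89322965, minus strand), stood at 14.7, 16.8, 17.8, 7.69 and 7.5 against 0, 2.04 and 6.33 FPKM (log2 difference 2.12, SE 0.44, limma adjusted p = 0.0184). Arl9, a small GTPase (chr5:77004055-77010606, plus strand), stood at 22.3, 16, 12.4, 9.24 and 17.5 against 2.83, 4.09 and 6.81 FPKM (log2 difference 1.57, SE 0.28, limma adjusted p = 0.0118). The levels of these 3 were low. Genes of this and the next paragraph were named only if their groups did not overlap, so that separation is no added result. The same holds for Ubd, Osbpl3 and Ccl5 above. Bud13, a splicing factor (chr9:46283008-46299110, plus strand), stood at 108, 159, 55.9, 70 and 85.2 against 26.2, 33.2 and 47.8 FPKM, 2.78-fold higher (log2 difference 1.38, SE 0.24, limma adjusted p = 0.0109). Dock3, an activator of Rac (chr9:106892825-107231909, minus strand), stood at 6.04, 2.47, 4.46, 3.23 and 2.25 against 0, 0.727 and 1.38 FPKM (log2 difference 1.45, SE 0.31, limma adjusted p = 0.0198), a call that ended without Irs1 KO 1 (limma adjusted p = 0.051).

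Among the lower genes, Ubxn11 (chr4:134102570-134127593, plus strand) was listed at 0 in 4 Irs1 KO livers and at 0.891 in the other, against 2.41, 8.13 and 23.9 FPKM (limma adjusted p = 0.00731). Capg, which caps actin filaments and is abundant in macrophages (chr6:72544391-72562983, plus strand), stood at 0, 3.05, 8.53, 8.55 and 9.66 against 13.2, 29.9 and 77.2 FPKM (log2 difference -2.61, SE 0.61, limma adjusted p = 0.0285), a call that ended without Irs1 KO 2, Smyd2 KO 2 or Smyd2 KO 5 (limma adjusted p up to 0.0634). In the other direction, the microRNA gene Mir1894 (chr17:35917889-35917969, plus strand) was higher in Irs1 KO. It stood at 23.5, 30, 40.6, 28 and 54.7 against 4.82, 9.95 and 23.2 FPKM (log2 difference 1.56, SE 0.33, limma adjusted p = 0.0189). This counts reads over the hairpin locus and not the mature microRNA. The locus is short, so at the implied depth these values stand for few reads. Its groups were barely separate, with 23.51 FPKM in Irs1 KO 1 and 23.22 in Smyd2 KO 1. H2-Bl, annotated as a polymorphic pseudogene of the MHC class I family (chr17:36080115-36084223, minus strand), was also higher in Irs1 KO. It stood at 2.62, 2.78, 2.2, 4.55 and 6.03 against 0, 0.857 and 1.69 FPKM (log2 difference 1.34, SE 0.33, limma adjusted p = 0.0343). Its reads may be shared with near-identical class I genes, and the call ended without any 1 of Irs1 KO 1, 2, 4 or 5 or Smyd2 KO 1 or 2 (limma adjusted p up to 0.0764).

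Some of these calls also ended under another setting with all livers kept. Scaling to equal medians ended the calls of Hsd17b13, Ehhadh, Fads2, Stat5a and Fmo2, and quantile normalization those of Hnf4a, Cps1, Pdgfrb, Stat5a, Fmo2 and Fgf21. A pseudocount of 0.1 in place of 1 ended those of Efna3, Dock3, Ccl5, Capg, H2-Bl and Susd4, and a pseudocount of 5 that of Gpnmb. Fitting all 34 livers together ended the calls of Mir1894, H2-Bl, Lum, Pdgfrb, S100a8, Csf3r, Fads2, Fmo2, Herpud1, Mcm5 and Top2a. Testing every gene above 0, with no filter on low values, ended those of Capg, Cps1, Fads2, Susd4, Fmo2, Stat5a, Fgf21 and Top2a. Without an intensity trend in the variances the calls of Hnf4a, Cps1, Gckr, Ppargc1a, Fads2, Scarb1, Susd4, Fmo2, Stat5a, Herpud1 and Fgf21 ended. A replicate block ended 18 of the named calls, among them those of Asgr2, Pdk4, Gckr, Cps1, Pdgfrb, Gpnmb, Mir1894 and H2-Bl. For Asgr2 and Pdk4 it was the only alternative that did (limma adjusted p = 0.0541 each).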

How the data were processed

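TRIzol and RNeasy columns yielded RNA of 34 mouse livers, from which libraries were made with a SMARTer stranded total RNA kit, per the labels' protocols. The authors deposited 1 table of FPKM per gene symbol and liver. Reads were counted with featureCounts 1.6.4, per the submitters' processing notes, which also name the builds mm10 and GRCh38. Aligner, annotation and strandedness of the counting were not given in the sources used here, so reads of a gene and of an overlapping or antisense neighbour may not be separated.

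The 5 Irs1 KO and 6 Smyd2 KO columns were taken to log2(FPKM + 1) and tested with limma 3.58.1 (R 4.3.3), on a scale that understates the change of low genes. The fit had 2 groups, an intensity trend in the moderated variances and no block. Genes needed 1 FPKM or above in no fewer than 5 of the 11 livers. P-values are two-sided, Benjamini-Hochberg adjusted over 16910 genes, with a threshold of 0.05. Fold values are ratios of mean FPKM. Depth was implied from FPKM steps and annotated transcript lengths (GENCODE M21, GRCm38), which also gave the coordinates. The code was tested on simulated data.

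The named genes are the targeted genes, the 8 highest and 8 lowest called differences with groups that did not overlap, and up to 4 called members of each of 36 lists by smallest adjusted p (with fewer than 2 called, the 2 of smallest p). H2-Ab1 was named after its value was seen. A few genes under this rule are not reported here. Unnamed loci, 100 of the calls, were counted only. The members and lists were chosen with earlier results of these data known. Lists are described by counts and medians, with no test of the list. The 15 mitochondrially encoded genes matched no symbol in the table and are not analysed here. Promoters were to be those of the highest and lowest named differences. That of Hsd3b5 is not printed because its difference did not pass, and RefSeq entries matched 85 of the 110 named genes.

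Replicate numbers were not used to pair the samples in the main fit. The 21 alternatives were pseudocounts of 0.1 and 5, no filter, a filter at an FPKM of 5, median scaling, quantile normalization, a fit of all 34 livers with 6 levels, no trend, array weights, a replicate block, and leaving out each of the 11 livers.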

Additional observations from a re-analysis of the deposited data

Results flagged for a closer look

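In 14 of 220 pairs of a named gene and a group (6.36%), 1 liver lay far from the others of its group. The measure was the gap to its nearest neighbour over the group's range, both on log2(FPKM + 1). The cut used gives about 1 in 20 for normally distributed values. The named genes were chosen by their results, so the 6.36% is not judged against that share. For Ubxn11 and S100a8 in Irs1 KO the others were all listed at 0, which fixes the measure at 1.0. Values below are FPKM, and their causes were not tested.

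In Irs1 KO, liver 2 was low for Cd74 at 75.6 (the others 103 to 116) and high for S100a8 at 2.06 (the others listed at 0). Liver 3 was low for H2-Aa at 10.3 (the others 18.4 to 20.4) and for Bub1b, a mitotic checkpoint kinase, at 0.597 (the others 1.54 to 1.85), and high for the glycolytic enzyme Pgk1 at 69.7 (the others 60.3 to 62.5). Liver 4 was low for Plk2 at 9.05 (the others 14.3 to 16.1) and high for Ubxn11 at 0.891 (the others listed at 0). Liver 5 was high for Hmox1 at 30.0 (the others 20.8 to 23.0).

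In Smyd2 KO, liver 1 was low for Cidec at 185 (the others 343 to 476) and for Mecom at 15.1 (the others 33.4 to 48.5). Liver 2 was high for Pdk4 at 37.1 (the others 14.4 to 19.8). Liver 6 was low for Vnn1 at 197 (the others 378 to 491) and high for Btg2, an antiproliferative p53 target, at 58.6 (the others 27.5 to 33.6) and for Col18a1 at 3553 (the others 2977 to 3140).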

How the results depend on the processing

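Of 1009 genes called (244 higher, 765 lower in Irs1 KO), leaving out 1 liver at a time gave 453 to 1365 (102 to 401 higher, 351 to 964 lower). The total moved by over 1.5 times without Irs1 KO 1, 2 or 4 (453, 559 and 549) or Smyd2 KO 2, 4 or 5 (491, 638 and 511), and was highest without Smyd2 KO 6. No filter on low values gave 641 (152 higher, 489 lower; more genes tested), and no trend in the variances gave 656 (136 higher). Array weights gave 1354 with 375 higher. Scaling to equal medians moved the median log2 difference of all genes from -0.11 to 0.06 and gave 779 higher and 417 lower, and quantile normalization gave 420 lower. For these counts the cause was not tested. A pseudocount of 0.1 gave 908, a pseudocount of 5 gave 950, a filter at an FPKM of 5 gave 1076 and the fit of all 34 livers 884.

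Deviations of same-numbered livers from their group means correlated at -0.02 to 0.09, and 1 of 5 Irs1 KO livers correlated best with its own number. So few livers cannot settle whether the numbers pair the samples. With a replicate block (livers 1 to 5 of each group) 783 genes were called, 217 higher and 566 lower, of which 562 were among the 1009.

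Of 84 named genes called, 40 kept their call in all 21 alternatives. Over 2298 combinations of named gene and alternative, 298 lost the call, 49 gained it and 0 changed sign. At 2430000 to 2740000 implied reads, low genes carry large errors, and a listed 0 is a value under the detection limit.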
